A study of Mus musculus with 12 samples.

Results

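The genes described here are the expressed antisense and divergent noncoding RNAs of the mouse kidney. They are the genes whose type in the table is antisense or bidirectional_promoter_lncRNA and that had a raw count of at least 10 in at least 3 of the 12 libraries, so the members were chosen by their gene type and their counts. Of the 964 genes of these types in the table, 161 met this rule, 135 of them antisense and 26 divergent. A further 492 had counts but stayed under the rule, 310 were at 0 in every library, and Gm15441 was left out of the set by name. The rule used the counts themselves, so the level of these genes is a description. Just inside the rule lay 5033403F01Rik and D930007J09Rik, which had 10 counts in the library ranking 3 from the top, and just outside it lay 0610025J13Rik and Gm26513, which had 9.

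An antisense RNA is transcribed from the strand opposite to another gene, often across its exons, introns or promoter. A divergent RNA starts close to the start of a coding gene and runs away from it, so that both transcripts leave a shared promoter region in opposite directions. Some RNAs of these classes act on the gene at the same locus, as Kcnq1ot1 does in genomic imprinting, some carry microRNA hairpins, and for most no role is known.

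RNA sequencing was done on kidney from 4 groups of 3 libraries: wild type (WT) after ischemia and reperfusion (WT I/R), Lrrk2 knockout after I/R (KO I/R), WT after sham surgery (WT sham) and Lrrk2 knockout after sham surgery (KO sham). In I/R animals the left kidney was made ischemic for 30 min at 37 °C and the other kidney was removed. Sham animals had this operation, including the removal, without the ischemia. Lrrk2 encodes leucine-rich repeat kinase 2. Sources used here do not give the reperfusion time, the sex and age of the animals or how the knockout was made. The labels do not say that the libraries came from separate animals, so a p-value speaks of the spread among these libraries, which may be technical.

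The sequences below belong to the genes on which the results turn. The first 4 are promoter regions from 250 bases before to 50 bases after the start that RefSeq gives (GRCm38.p6). They are shown because Prdm16os, 3110045C21Rik and 0610009L18Rik start head to head with a coding gene, while Dnm3os lies inside an intron of its coding gene. They lie on the plus strand at chr4:154637330-154637629, chr1:169969159-169969458, chr11:120348428-120348727 and chr1:162217373-162217672, in that order. Capitals mark matches, on either strand, to the GC box (letters GGGCGG) or to the CCAAT box.
Prdm16os: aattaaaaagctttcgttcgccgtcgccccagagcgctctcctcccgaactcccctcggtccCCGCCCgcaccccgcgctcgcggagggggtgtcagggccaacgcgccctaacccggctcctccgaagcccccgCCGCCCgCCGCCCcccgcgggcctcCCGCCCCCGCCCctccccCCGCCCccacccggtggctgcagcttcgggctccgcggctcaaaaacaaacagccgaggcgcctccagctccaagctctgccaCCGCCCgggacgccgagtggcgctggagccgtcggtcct
3110045C21Rik: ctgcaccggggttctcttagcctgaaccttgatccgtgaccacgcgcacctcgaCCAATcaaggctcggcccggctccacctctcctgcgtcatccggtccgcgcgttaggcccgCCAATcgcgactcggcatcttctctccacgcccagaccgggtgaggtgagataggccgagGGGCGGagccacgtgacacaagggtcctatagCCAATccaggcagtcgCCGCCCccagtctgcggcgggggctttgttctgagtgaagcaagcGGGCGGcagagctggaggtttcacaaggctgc
0610009L18Rik: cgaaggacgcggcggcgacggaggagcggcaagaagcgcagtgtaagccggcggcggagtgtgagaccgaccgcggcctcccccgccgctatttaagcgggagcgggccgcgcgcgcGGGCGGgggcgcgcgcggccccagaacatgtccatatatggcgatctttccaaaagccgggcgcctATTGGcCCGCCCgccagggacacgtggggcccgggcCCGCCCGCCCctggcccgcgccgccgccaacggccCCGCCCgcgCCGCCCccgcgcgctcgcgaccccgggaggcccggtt
Dnm3os: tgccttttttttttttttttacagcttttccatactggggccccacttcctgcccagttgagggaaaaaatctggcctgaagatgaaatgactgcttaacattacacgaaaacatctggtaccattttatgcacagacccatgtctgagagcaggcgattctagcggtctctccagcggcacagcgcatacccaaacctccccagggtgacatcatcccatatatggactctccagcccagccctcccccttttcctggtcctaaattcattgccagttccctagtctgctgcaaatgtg

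The Prdm16os window held 39 CG dinucleotides, 7 matches to GGGCGG and 0 to CCAAT. That of 3110045C21Rik held 27 CG dinucleotides and 3 matches to each motif, and that of 0610009L18Rik held 53 CG dinucleotides, 6 matches to GGGCGG and 1 to CCAAT. The Dnm3os window held 5 CG dinucleotides and neither motif. RefSeq had such a window for 73 of the 161 genes, the nearest on the same strand being taken with no limit of distance. The RefSeq start lay up to 35705 bases (Gm35853) from that of the counted locus, and 7817 bases for 4930533I22Rik. Some of the 73 windows are therefore not at the start of the counted gene. For the 4 windows shown the distance was 4 bases (Prdm16os) or 0. The median number of CG dinucleotides in the 73 windows was 22, against 7 in all 32851 windows of that table, which were not limited to expressed genes. It was 37 in the 14 divergent genes and 15 in the 59 antisense genes. GGGCGG on either strand, overlapping matches counted, was held by 57.5% of the 73 windows and by 35.7% of all windows. CCAAT was held by 37.0% and 37.4%, TATAAA by 5.48% and 13.6%, TGANTCA by 1.37% and 7.81%, and TGACGTCA by 2.74% and 1.79%, each time in the 73 windows and in all windows. These matches describe letters in a window and not binding.

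Dnm3os (7928 bases, chr1:162217623-162225550, plus strand) also carries the hairpins Mir199a-2 and Mir214, which start 191 and 5745 bases into it. The mature microRNAs of these hairpins, from RefSeq on GRCm38.p6, are given with their seed, bases 2 to 8, in capitals. Their seeds differ from each other.
mmu-miR-199a-5p: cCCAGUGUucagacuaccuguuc
mmu-miR-199a-3p: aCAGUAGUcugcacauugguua
mmu-miR-214-5p: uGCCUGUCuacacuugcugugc
mmu-miR-214-3p: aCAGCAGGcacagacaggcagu

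**Figure D1:**
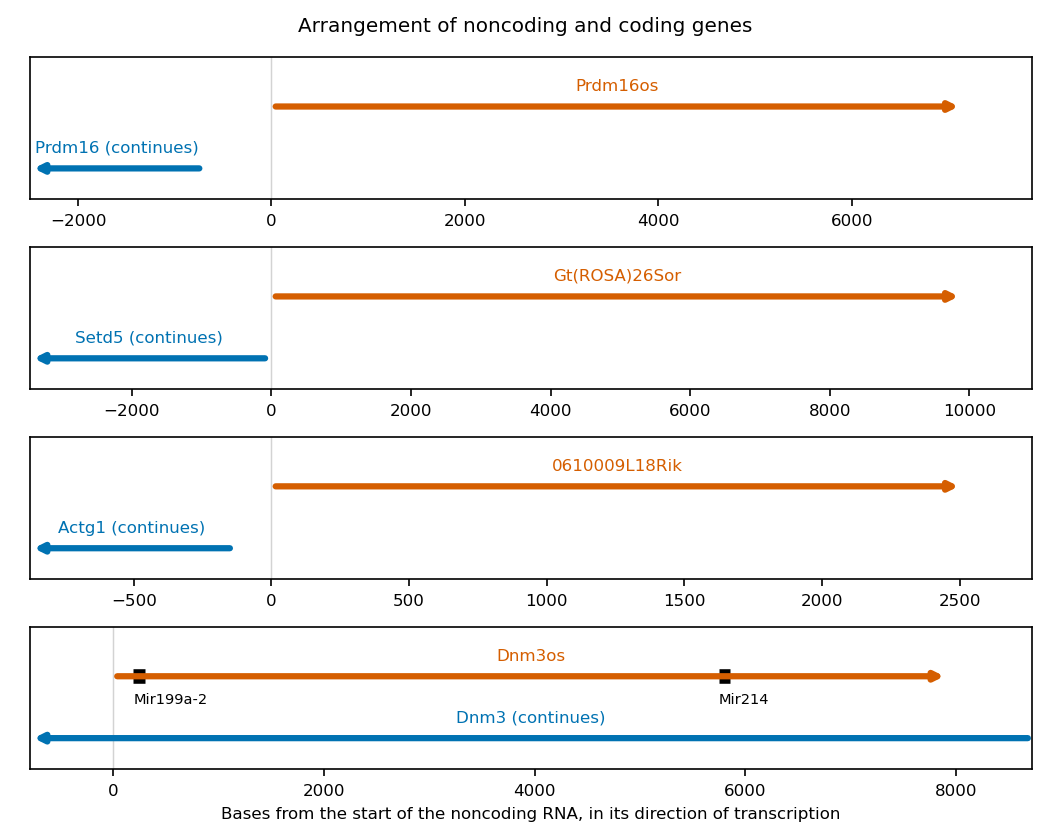
Arrangement of 4 noncoding RNAs (orange) and the coding gene at the locus (blue), drawn to scale within each panel in bases from the start of the noncoding RNA along its direction of transcription; arrows point in the direction of transcription and black boxes are microRNA hairpins. Prdm16os, Gt(ROSA)26Sor and 0610009L18Rik start 703, 32 and 136 bases from the start of Prdm16, Setd5 and Actg1, and Dnm3os lies inside Dnm3.

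Total counts over the table lay between 4678827 and 5456261 per library. Lrrk2 had 235 to 793 counts in KO I/R and 207 to 1651 in KO sham, against 320 to 464 in WT I/R and 1284 to 2053 in WT sham. Its counts did not separate the genotypes (log2 -1.16, SE 0.55, edgeR adjusted p = 0.809 in KO sham against WT sham), and the counts per gene did not test the deleted part, so KO names the label of a library throughout. In KO I/R 2 the count and the FPKM column disagreed: 47 of the 161 genes differed by more than 2-fold from the reads recovered from FPKM, and values with these recovered reads are given where they change a result. KO sham 3 held the highest level of 62 of the 159 tested genes and KO I/R 2 that of 29, against 3 to 10 in the other libraries. The adrenal gene Cyp11b1 was at 1.29 FPKM and the muscle gene Myh4 at 0.363 FPKM in KO sham 3, and both were listed at 0 in the other libraries. Of 8 proximal tubule markers, 4 were in the table, with a summed level of 73.6 to 116 FPKM in I/R and 185 to 519 FPKM in sham. Aqp1 and Slc34a3 were lower in each I/R library than in each sham library. Slc5a2 overlapped, with 27.5 to 65.2 FPKM in I/R and 20.1 to 71.5 FPKM in sham. Slc22a30 had 2.13 to 7.66 FPKM in I/R, 3.36 FPKM in KO sham 1 and 23.7 to 54.6 FPKM in the other sham libraries. All 4 markers of injured tubule were in the table, with 1392 to 1849 FPKM in I/R and 22.6 to 83.8 FPKM in sham. Among the sham libraries KO sham 1 stood out, with 23.2 FPKM of Havcr1 and 8.99 FPKM of Lcn2. The other sham libraries had 0.0656 to 2.01 and 0.433 to 1.44 FPKM of these. Sox9 was highest there among sham libraries as well, while Clu lay within their range. Of 6 leukocyte markers 5 were there, with 3.07 to 5.92 FPKM in I/R and 7.59 to 9.54 FPKM in sham. Csf1r made up most of that sum, with 1.77 to 2.98 FPKM in I/R and 6.50 to 8.44 FPKM in sham, and Cx3cr1 and Cd8a were lower in I/R as well. Itgam had 0.459 to 1.30 FPKM in I/R and 0.0398 to 0.142 FPKM in sham, and Csf3r 0.642 to 1.88 FPKM in I/R and 0.0765 to 0.358 FPKM in sham, so both were higher in each I/R library. The part of these cell types in the changes given below was not tested, and in bulk tissue fewer cells of a type and less RNA per cell cannot be told apart.

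Most of the noncoding RNAs were scarce. The median of their mean FPKM (fragments divided by transcript length and library size) was 0.800, with a range of 0.0394 to 313, against a median of 2.78 in the 4184 coding genes of the table that met the same count rule. Only 12 exceeded 5 FPKM, 95 stayed under 1 FPKM, and 64 had at least 10 counts in every library. Together they held 0.183% to 0.200% of the counts in the 6 I/R libraries and 0.208% to 0.295% in the 6 sham libraries, so these ranges did not overlap. Without Gm44588 and Gm19950, which had the highest summed counts, the other 159 held 0.114% to 0.141% in I/R and 0.128% to 0.159% in sham, and these ranges did overlap. A coding gene on the opposite strand overlapped, or started head to head within 2000 bases, at 158 of the 161 loci, and at 117 exons of both genes overlapped. Whether the counting used strand is not stated, so reads of a noncoding RNA and of the exons opposite to it cannot be told apart.

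The highest level by far was that of Gm44588 (ENSMUSG00000109254, chr7:119462821-119472478, plus strand), which lies opposite Umod, the gene of uromodulin, the main protein of normal urine made in the thick ascending limb. Gm44588 had a mean of 313 FPKM and Umod one of 496 FPKM, and 98.9% of the exonic bases of Gm44588 lie on Umod exons. Gm44588 had 2588, 2070 and 3165 counts in WT I/R, 2903, 530 and 1993 in KO I/R, 3463, 4029 and 3892 in WT sham and 5048, 2988 and 232 in KO sham. It was lower in each WT I/R library than in each WT sham library, and the counts of KO I/R 2 and KO sham 3 stood far below those of their groups. The recovered reads of KO I/R 2 were 1878, near the 1993 counts of KO I/R 3. The I/R difference did not pass the edgeR test in WT (log2 -0.72, SE 0.68, adjusted p = 0.473), but did when only the 6 WT libraries were fitted (-0.72, adjusted p = 0.00916). It did not pass in KO (-0.49, SE 0.68, adjusted p = 0.627), where it was -0.21 with the recovered reads, 0.11 without KO sham 1 and 0.58 with limma on log2(FPKM + 0.1), none of them past the test. Umod differed by -0.32 (SE 0.28) in WT and -0.18 (SE 0.28) in KO on the same scale.

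Next in level came Gm19950 (mean 19.1 FPKM), which lies across Acsm1, a medium-chain acyl-CoA synthetase gene, with no exon overlap. Gm19950 had 821, 1463 and 1292 counts in WT I/R, compared with 3974, 3416 and 2931 in WT sham, and 1397, 1437 and 1708 in KO I/R against 1916, 3189 and 2318 in KO sham. In raw counts the I/R libraries lay below the sham libraries in both genotypes, and in CPM the KO groups overlapped. Gm19950 fell by 1.71 (log2) in WT (SE 0.31, edgeR adjusted p = 0.00342) and the difference in KO was -0.75 (SE 0.31, adjusted p = 0.0985). The other genes of highest level were Arhgap27os2 (12.5 FPKM), Gm48702 (10.5), 2610306M01Rik (7.89), Gm45051 (7.88), 0610009L18Rik (7.81) and Zbtb11os1 (7.57 FPKM).

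The comparison of WT I/R with WT sham asked how these RNAs changed after ischemia in the normal kidney. Of the 159 genes tested, 28 changed at an edgeR adjusted p under 0.05, 8 higher and 20 lower, which is 17.6% of them, against 20.9% of all 5048 genes tested (10.2% higher and 10.7% lower). The members' median log2 change was -0.25, against -0.04 over all genes tested. Of the antisense genes 7 of 133 rose and 19 fell, and of the divergent genes 1 of 26 rose and 1 fell. In KO I/R against KO sham 23 changed, 7 higher and 16 lower, which is 14.5%, against 23.5% of all genes (11.9% higher and 11.5% lower), with a median of -0.37 against -0.08. Scaling to whole-library totals with the recovered reads for KO I/R 2, chosen after seeing the data, gave 16 higher and 19 lower in WT and 12 higher and 16 lower in KO, with the median of all genes at 0.10 and 0.03. Over all genes that scaling gave 17.3% higher and 9.28% lower in WT and 14.0% higher and 9.77% lower in KO. The higher calls grew in number under it, among these RNAs and over all genes, while the lower calls of these RNAs stayed near those above. With 1 WT library left out the WT calls numbered 13, 13 and 16 without WT I/R 1, 2 and 3, and 18, 18 and 14 without WT sham 1, 2 and 3. Over all genes 10.1%, 10.6% and 12.5% were called without WT I/R 1, 2 and 3, and 12.5%, 14.4% and 12.4% without WT sham 1, 2 and 3, so the share of calls fell over all genes too. The KO calls numbered 7 when only the 6 KO libraries were fitted, which is 5.34% against 7.58% of all genes. Those of 3110045C21Rik, Gm15638, Gm15848, Gm45051, Gm16174 and Man2c1os were among the KO calls lost in that fit. Without KO sham 3 the KO calls numbered 30, of which 14 were higher, which is 18.8% against 26.4% of all genes. The members' medians depended on single libraries too. In KO the median was -0.11 without KO sham 3, against -0.05 over all genes. Without any 1 other KO library it was -0.42 to -0.33. In WT the median was -0.05 without WT sham 1, against -0.01 over all genes. Without any 1 other WT library it was -0.30 to -0.15.

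Passing the count rule by way of I/R or of sham libraries alone was seen for 18 genes, of which 7 changed in WT, in KO or in both. Such a gene had to differ, so these 7 calls carry no weight as a count. They were those of D630011A20Rik, Faddos and Gm16174, higher in I/R, and 4930533I22Rik, Gm14320, Gm22146 and Gm27011, lower in I/R. Of the other changed genes, Dnm3os, Arhgap27os1 and Gm27176 reached 10 counts in 1 sham library only. Gm42375, Gm15962, E030037K01Rik, Gm17597 and Gm12927 did so in 1 I/R library only. None of these would have met the rule without the condition in which it was higher, so their calls are a description too. For Gm42375 that library was KO I/R 2, with 22 counts and 4 recovered reads. Of the 110 genes with at least 10 counts in 3 or more libraries of each condition, 20 changed in WT, in KO or in both. The share of changed genes among all genes that meet these conditions was not counted, so these numbers are a description. In both genotypes 16 genes changed, 6 higher and 10 lower, which is 57.1% of the WT calls and 69.6% of the KO calls, and 0 changed in opposite directions. D630011A20Rik, Faddos, Gm16174 and 4930533I22Rik, which had to differ, are among these 16. The share of calls common to both genotypes was not counted over all genes. The sign of the change was the same in both genotypes for 77.4% of the 159 genes and for 82.1% of all genes tested. Across the 159 genes the WT and KO changes correlated with r = 0.798, as a description over genes that are not independent, with 0.814 over all genes tested.

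**Figure D2:**
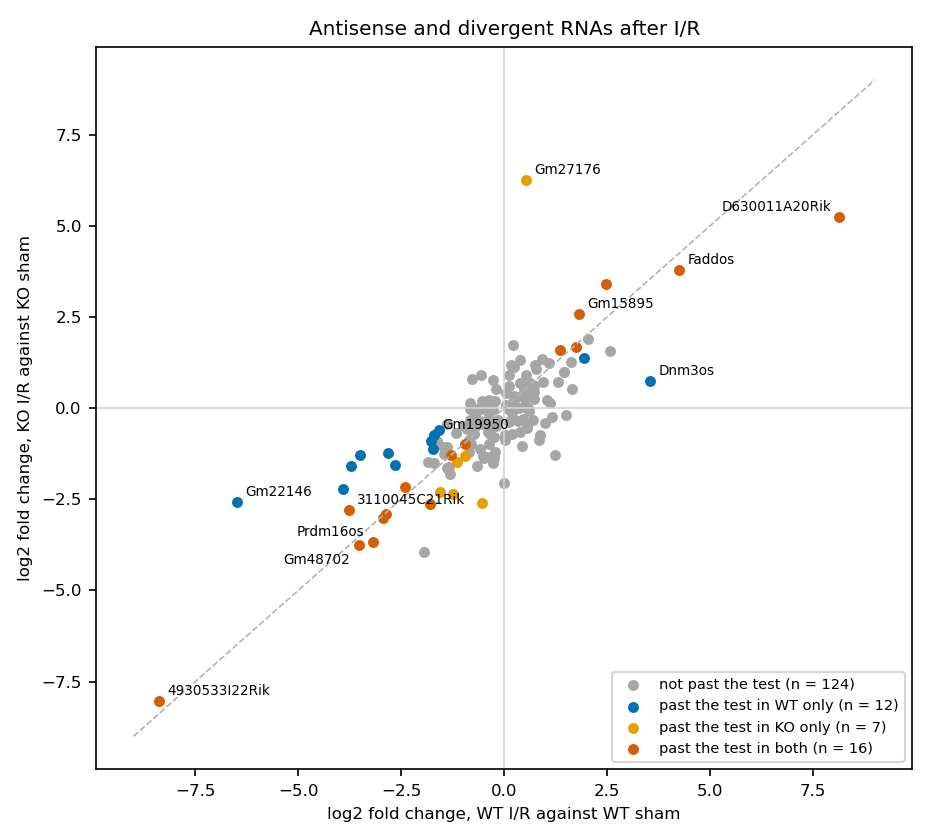
Log2 fold change after I/R in WT (x axis) and in KO (y axis) for the 159 tested noncoding RNAs, 1 point per gene, coloured by the comparison in which it passed the edgeR test; the dashed line marks equal change. The 16 genes past the test in both genotypes share their sign in both genotypes.

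The RNAs that fell most steadily were led by Prdm16os (ENSMUSG00000085069, chr4:154637576-154644724, plus strand). It starts 703 bases from Prdm16, which encodes a transcriptional coregulator known from brown fat, and runs the other way. Prdm16os had 47, 36 and 53 counts in WT I/R, 40, 32 and 37 in KO I/R, 324, 320 and 466 in WT sham and 763, 478 and 239 in KO sham. Every I/R library lay below every sham library. The level was 8.13 ± 1.38 CPM (TMM-scaled counts) in WT I/R and 74.7 ± 14.9 CPM in WT sham (mean ± SD, n = 3 each). It was 7.31 ± 0.441 CPM in KO I/R and 93.2 ± 29.5 CPM in KO sham. Prdm16os fell by 3.20 on the log2 scale in WT (SE 0.30, edgeR adjusted p = 9.55e-05) and by 3.67 in KO (SE 0.30, adjusted p = 5.14e-05).

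Gm48702 (chr9:44799258-44802838, plus strand) lies opposite Ttc36 and the start of Tmem25, and 6.2% of its exonic bases lie on Tmem25 exons. It had 15, 17 and 29 counts in WT I/R, 18, 30 and 25 in KO I/R, 288, 88 and 247 in WT sham and 136, 433 and 368 in KO sham. The I/R and sham libraries did not overlap. Gm48702 fell by 3.53 in WT (SE 0.62, edgeR adjusted p = 0.00279) and by 3.76 in KO (SE 0.62, adjusted p = 0.00206) on the log2 scale.

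3110045C21Rik (chr1:169969409-169972396, plus strand) starts 168 bases from Hsd17b7, a gene of steroid and cholesterol synthesis. It had 14, 14 and 16 counts in WT I/R, compared with 164, 181 and 194 in WT sham, and 15, 43 and 22 in KO I/R against 59, 144 and 302 in KO sham. The raw counts did not overlap in either genotype, but in CPM KO I/R 2 lay above KO sham 1, and the KO sham libraries spread widely. It fell by 3.77 in WT (SE 0.71, edgeR adjusted p = 0.00387) and by 2.79 in KO (SE 0.67, adjusted p = 0.0119). The KO value was -1.72 without KO sham 3, with the call kept (adjusted p = 0.0351), -3.50 without KO I/R 2 and -3.54 with the recovered reads.

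Gm21691 lies opposite the end of Mylk, which encodes myosin light chain kinase, and the start of Hacd2. It had 3, 10 and 10 counts in WT I/R, 10, 3 and 11 in KO I/R, 46, 49 and 56 in WT sham and 29, 75 and 62 in KO sham, with no overlap between I/R and sham. Gm21691 fell by 2.87 in WT (SE 0.59, edgeR adjusted p = 0.00559) and by 2.91 in KO (SE 0.58, adjusted p = 0.00525) on the log2 scale. Gm15638, which overlaps Phldb2 and Plcxd2 outside exons, fell by 2.41 in WT (adjusted p = 0.00555) and by 2.16 in KO (adjusted p = 0.00924). Gm15848, which overlaps Fcamr, an Fc receptor gene, fell by 2.95 in WT (adjusted p = 0.011) and by 3.03 in KO (adjusted p = 0.00876). The WT call of Gm15848 was lost without WT I/R 1 (adjusted p = 0.0542), and its KO value was -4.03 without KO I/R 2.

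4930533I22Rik (chr6:57476697-57497671, plus strand), for which no coding gene was found within 2000 bases, was at 0 in all 6 I/R libraries. It had 23, 34 and 65 counts in WT sham and 28, 55 and 15 in KO sham. With a floor of 3 counts over the group, it was at least 45.8-fold lower in WT I/R and at least 32.4-fold lower in KO I/R than in sham, and it passed the edgeR test in both (adjusted p = 0.00197 in WT and 0.00267 in KO). It entered the set by its sham libraries alone. Gm22146, inside Fkbp5, the gene of a glucocorticoid receptor cochaperone, was at 0 in WT I/R against 11, 9 and 12 counts in WT sham. This was at least 12-fold lower in WT I/R (edgeR adjusted p = 0.00843), and Gm22146 too entered the set by its sham libraries alone. In KO it had 0, 2 and 2 counts in I/R against 4, 18 and 4 in sham, and the difference did not pass the test (log2 -2.58, SE 0.94, adjusted p = 0.0741).

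Among the other RNAs lower in both genotypes were Gm45051, Zeb2os and 2810013P06Rik, of which the last 2 were chosen after their values were seen. Gm45051, opposite 0610030E20Rik, had 57, 48 and 34 counts in WT I/R, compared with 143, 160 and 128 in WT sham, and 62, 51 and 32 in KO I/R against 111, 298 and 404 in KO sham, without overlap. It fell by 1.80 in WT (edgeR adjusted p = 0.033), a call lost when any 1 of the 6 WT libraries was left out (adjusted p up to 0.113), and by 2.63 in KO (adjusted p = 0.00607), where the value was -1.93 without KO sham 3. Zeb2os, opposite Zeb2, a transcription factor of epithelial to mesenchymal transition, fell by 1.30 in both genotypes (edgeR adjusted p = 0.0218 in WT and 0.0206 in KO). Its WT call was lost without WT I/R 1 (adjusted p = 0.0942), WT I/R 3 (0.0901), WT sham 1 (0.0609) or WT sham 2 (0.0547), and its KO call without KO I/R 1 (0.0512), KO I/R 2 (0.0606) or KO sham 2 (0.0706), and in both genotypes with table totals in place of TMM factors. The divergent RNA 2810013P06Rik, which starts 189 bases from Ankrd11, a chromatin regulator gene, fell by 0.95 in WT (edgeR adjusted p = 0.0154) and by 0.97 in KO (adjusted p = 0.013). The WT call of 2810013P06Rik was lost without WT I/R 1 (adjusted p = 0.0783), without WT I/R 2 (0.0635) or without WT sham 3 (0.0579). Its KO call was kept with any 1 KO library left out. It was lost under 4 of the 19 alternatives, among them the fit to the KO libraries only.

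Further RNAs passed the test as lower in WT and did not pass it in KO. Gm15962, opposite Keg1, had 5, 7 and 8 counts in WT I/R, compared with 104, 53 and 117 in WT sham, and 3, 7 and 14 in KO I/R against 81, 47 and 0 in KO sham. It fell by 3.92 in WT (SE 0.99, edgeR adjusted p = 0.0164), and the KO difference was -2.21 (SE 0.95, adjusted p = 0.114). Gm42375, whose start lies opposite that of the cytochrome P450 gene Cyp2a4, had 2, 2 and 4 counts in WT I/R, compared with 26, 46 and 26 in WT sham and fell by 3.72 (SE 0.95, adjusted p = 0.0169), with -1.58 in KO (adjusted p = 0.179), where the recovered reads gave -2.91 (adjusted p = 0.012). The WT call of Gm15962 was lost when WT I/R 1 (adjusted p = 0.0737), 2 (0.0644) or 3 (0.0559) was left out, and that of Gm42375 when WT I/R 1 (0.0723) or 2 (0.0705) was. E030037K01Rik (WT log2 -3.51), Gm14320 (-2.82) and Gm16170 (-2.66) passed the test in WT with adjusted p of 0.0486, 0.0189 and 0.0441, and lost the call without any 1 of 5, 4 and 6 of the 6 WT libraries. Gm14320 entered the set by its sham libraries alone. The value of E030037K01Rik was -6.57 without WT I/R 1, with the call kept, and its call was lost under 12 of the alternatives in all. The interaction of genotype and I/R was called for 0 of the 159 genes, so a difference between the genotypes was not shown.

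In KO alone the test passed for 4930426D05Rik, opposite Klhl14, which had 49, 54 and 51 counts in KO I/R against 182, 171 and 375 in KO sham. It fell by 2.37 (SE 0.49, edgeR adjusted p = 0.00581), or by 1.57 without KO sham 3, and the WT difference was -1.25 (SE 0.47, adjusted p = 0.078). Gm27011 fell by 2.64 in KO (edgeR adjusted p = 0.0472), Gm17597, which overlaps the start of the circadian transcription factor gene Tef, by 2.60 (0.0352), and Gm44949 by 2.30 (0.0276). Gm27011 entered the set by its sham libraries alone. Without KO sham 3 the values were -2.35, -1.87 and -1.28 for Gm27011, Gm17597 and Gm44949, and none of these calls was kept (adjusted p = 0.0922, 0.104 and 0.105); leaving out KO I/R 1 or KO I/R 2 also ended each. The value of Gm27011 was -2.04 when KO I/R 1 was left out and -3.45 when KO I/R 2 was, and Gm44949 was at -1.62 with the recovered reads (adjusted p = 0.0764).

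The largest rise in WT was that of D630011A20Rik (ENSMUSG00000097421, chr8:12554272-12573320, minus strand), a divergent RNA whose start overlaps that of Spaca7, a sperm acrosome gene. It had 28, 40 and 46 counts in WT I/R against 0 in each WT sham library, and 20, 67 and 26 in KO I/R against 3, 0 and 0 in KO sham. It was close to absent from sham kidneys and present in each I/R library, and it entered the set by its I/R libraries alone. With the floor of 3 counts over the group it was at least 33.7-fold higher in WT I/R (edgeR adjusted p = 0.00314). In KO its log2 rise was 5.24 (SE 0.98, adjusted p = 0.00511), or 4.32 without KO I/R 2, 8.36 without KO sham 1 and 4.42 with the recovered reads.

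Faddos, opposite Fadd, the gene of the adaptor of death receptors, had 13, 21 and 16 counts in WT I/R, 23, 10 and 13 in KO I/R, 0, 2 and 0 in WT sham and 0, 3 and 0 in KO sham. The conditions did not overlap, and Faddos too entered the set by its I/R libraries. It rose by 4.25 in WT (SE 1.01, edgeR adjusted p = 0.0124) and by 3.77 in KO (SE 0.96, adjusted p = 0.0155). The calls were lost without WT sham 1 (adjusted p = 0.0542), WT sham 3 (0.0564), KO I/R 1 (0.0558) or KO sham 1 (0.0536), and the values were 6.96 without WT sham 2, 6.97 without KO sham 2 and 3.13 without KO sham 1.

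Gm15895 (ENSMUSG00000085068, chr8:110805638-110807477, plus strand) starts opposite Il34, which encodes a ligand of the receptor Csf1r, with the starts 286 bases apart. It had 136, 126 and 151 counts in WT I/R, 122, 234 and 193 in KO I/R, 42, 31 and 30 in WT sham and 17, 46 and 29 in KO sham. Every I/R library lay above every sham library. Gm15895 averaged 24.7 ± 1.63 CPM in WT I/R and 6.99 ± 1.62 CPM in WT sham (SD, n = 3 each), and rose by 1.82 in WT (SE 0.44, edgeR adjusted p = 0.0135) and by 2.57 in KO (SE 0.45, adjusted p = 0.00267). The WT call was lost without WT sham 3 (adjusted p = 0.0564).

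Arhgap27os2 and Arhgap27os1 lie opposite Arhgap27. Arhgap27os2 had 508, 521 and 507 counts in WT I/R, 303, 910 and 346 in KO I/R, 127, 157 and 126 in WT sham and 151, 146 and 200 in KO sham. All I/R libraries were above all sham libraries, and KO I/R 2 was the highest of all. Arhgap27os2 rose by 1.73 in WT (SE 0.48, edgeR adjusted p = 0.0241) and by 1.68 in KO (SE 0.48, adjusted p = 0.025). The KO value was 0.77 without KO I/R 2, where the call was lost (adjusted p = 0.108), as it was without KO sham 1 (0.0802) or KO sham 2 (0.0836), and it was 0.90 with the recovered reads (adjusted p = 0.0295). The WT call was lost without any 1 of the 6 WT libraries, with adjusted p up to 0.0878. Arhgap27os1 rose by 1.93 in WT (adjusted p = 0.0422), lost without any of 5 of the 6 WT libraries (up to 0.153) and was 2.79 without the remaining one, WT sham 2, with 1.36 in KO (adjusted p = 0.109).

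Gm16174, inside Bcl3, the gene of an atypical inhibitor of the NF-kappa-B family, had 11, 12 and 23 counts in WT I/R, 15, 25 and 12 in KO I/R, 1, 3 and 3 in WT sham and 4, 0 and 1 in KO sham. Its I/R libraries lay above its sham libraries, and it entered the set by the I/R libraries alone. It rose by 2.48 in WT (SE 0.76, edgeR adjusted p = 0.0369), lost without any 1 of the 6 WT libraries (up to 0.132), and by 3.40 in KO (SE 0.79, adjusted p = 0.0103), where it was 4.71 without KO sham 1.

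**Figure D3:**
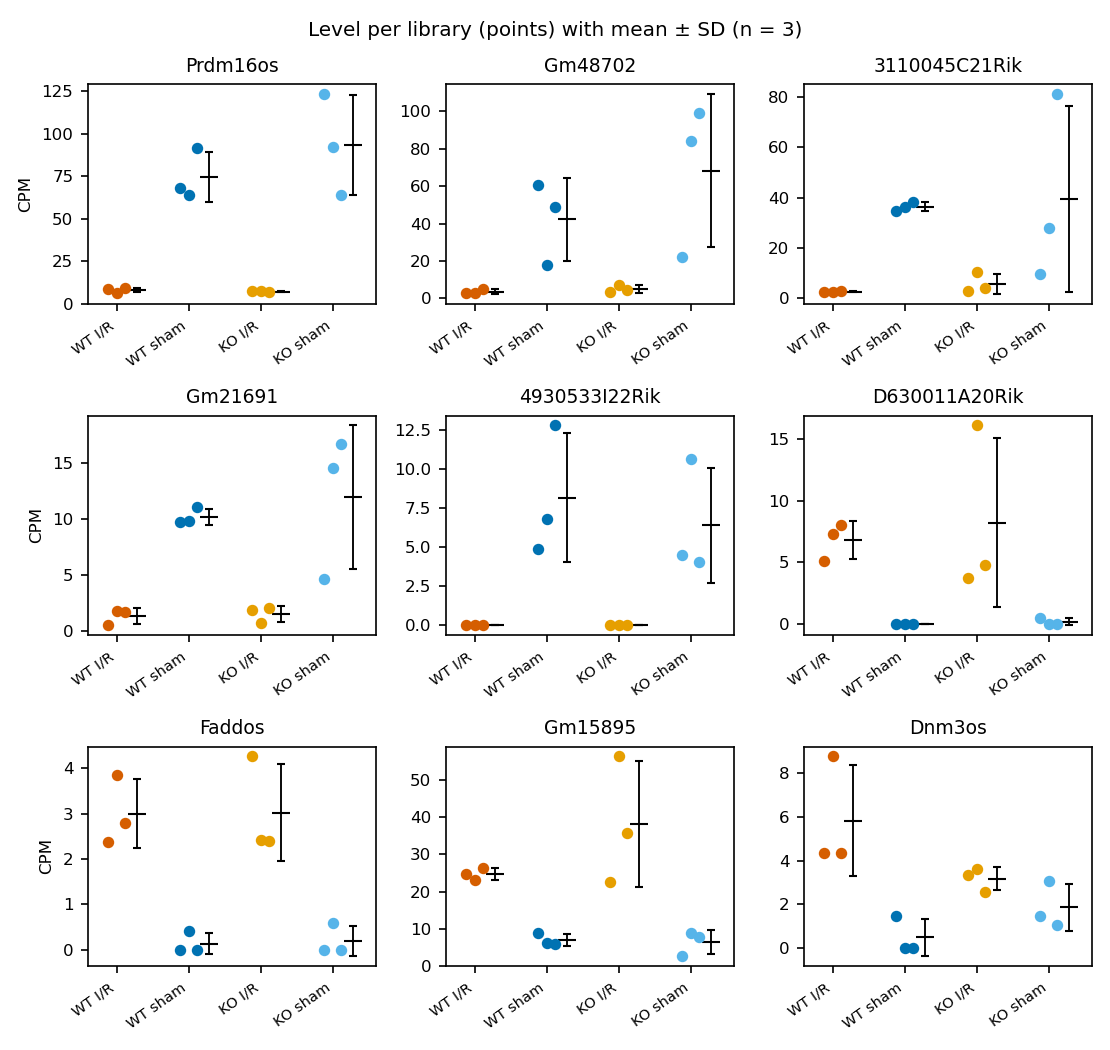
CPM of 9 noncoding RNAs in each library (points), with the mean and SD of the 3 libraries of each group (bars), I/R left of sham within WT and within KO. Prdm16os, Gm48702, 3110045C21Rik, Gm21691 and 4930533I22Rik are lower in I/R, and D630011A20Rik, Faddos and Gm15895 are higher; the y axes differ between panels. Dnm3os averaged 5.84 CPM in WT I/R and 0.492 CPM in WT sham, and its KO groups overlap.

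Dnm3os, the host of the microRNAs printed above, had 24, 48 and 25 counts in WT I/R, compared with 7, 0 and 0 in WT sham, and 18, 15 and 14 in KO I/R against 9, 16 and 4 in KO sham. The WT groups did not overlap, and the KO groups did. Dnm3os rose by 3.54 in WT (SE 0.93, edgeR adjusted p = 0.0195), and the KO difference was 0.73 (SE 0.81, adjusted p = 0.537, 95% interval -1.02 to 2.49). Of 4 fibroblast markers 2 were in the table. Col1a1, a fibrillar collagen gene, had 11.6 to 17.9 FPKM in WT I/R against 2.49 to 4.62 in WT sham, and 4.25 to 6.84 in KO I/R against 1.67 to 4.98 in KO sham. Pdgfrb had 6.23 to 8.77 FPKM in WT I/R against 2.09 to 2.96 in WT sham, and 3.90 to 5.58 in KO I/R against 3.82 to 5.56 in KO sham. As for Dnm3os, the WT groups of both markers did not overlap and the KO groups did, and the part of fibroblasts in the Dnm3os change was not tested. Their summed level was 9.34 to 26.7 FPKM in I/R and 5.08 to 10.5 FPKM in sham. The interaction did not pass the test (log2 -2.81, SE 1.23, unadjusted p = 0.0413 and adjusted p = 0.941). The WT value was 7.92 without WT sham 1, the one WT sham library with counts, and the call was lost without WT I/R 2 (adjusted p = 0.0795), WT sham 2 (0.061) or WT sham 3 (0.0662). Mir214, counted as a gene of its own, had 0 or 1 count in every library, so the microRNA was not measurable in these libraries.

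No RNA differed by genotype in the edgeR test: KO sham against WT sham gave 0 of 159 calls and KO I/R against WT I/R 0, both at 0.0% of all genes tested, and the interaction gave 0, also against 0.0%. An unadjusted p under 0.05 was met by 5, 4 and 4 genes in these comparisons. Without any difference a share of 0.05 of the 159 genes would meet it on average, and these counts do not exceed that share. The unadjusted share over all genes was not counted. DESeq2 called 1, 0 and 0, and limma on log2(FPKM + 0.1) called 1 in KO sham against WT sham. Over all genes DESeq2 called 28, 2 and 16 of 5048, and limma called 13 of 6488 in KO sham against WT sham. The gene called there was Gm27176 (chr14:69567147-69570509, minus strand), opposite Entpd4b. It had 6, 14 and 6 counts in KO I/R and 0 in each KO sham library, against 18, 17 and 7 in WT I/R and 5, 9 and 12 in WT sham, so KO sham lay below each other group without overlap. In KO, Gm27176 was at least 8.74-fold higher in I/R than in sham (edgeR adjusted p = 0.00662; fitted log2 6.24, or 5.57 without KO I/R 2 and 5.41 with the recovered reads), with a log2 of 0.53 in WT (SE 0.64, adjusted p = 0.584), and the adjusted p was 0.248 in KO sham against WT sham by edgeR and 0.0223 by DESeq2. The recovered reads of KO I/R 2 were 4, in place of 14 counts, and with them the bound was at least 5.38-fold. The KO call of Gm27176 was lost without KO sham 1 and KO sham 3 together. Its interaction did not pass either (adjusted p = 0.606). Entpd4b, which has a near-identical paralog (Entpd4) so that its counts are uncertain, had its lowest counts in KO sham 1 and KO sham 3. In KO sham it had 1677, 3470 and 2087 counts, against 2999, 3722 and 3851 in KO I/R, 4263, 3534 and 3920 in WT I/R and 7825, 8995 and 6779 in WT sham.

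Noncoding RNAs were then set against the coding gene at the same locus where it was in the table. This held for 57 genes, of which 39 overlapped an exon of the partner, 8 overlapped it outside exons and 10 started head to head without overlap. The log2 ratio of the counts of the noncoding RNA to those of its partner was fitted in limma, and 55 such pairs were tested among 419 pairs of overlapping or head-to-head genes. In WT I/R against WT sham 7 pairs (12.7%) changed their ratio, 3 toward the noncoding RNA and 4 toward the coding gene, against 9.55% of all pairs. The 4 include the pair of Gm22146, an RNA that entered the set by its sham libraries alone and had to differ. The 3 include the pair of Dnm3os, which would not have met the count rule without its I/R libraries. In KO I/R against KO sham 5 changed (9.09%), 2 and 3, against 12.6% of all pairs. The 2 include the pair of Gm27176, which also needed its I/R libraries to meet the rule. With the recovered reads 11 pairs changed in WT and 13 of the 55 in KO, against 17.2% and 21.2% of all pairs. With 1 library left out, 2, 2 and 5 pairs changed without WT I/R 1, 2 and 3, and 4, 4 and 1 without WT sham 1, 2 and 3. Of all pairs 3.34%, 3.82% and 5.97% changed without these WT I/R libraries, and 5.01%, 4.06% and 2.63% without these WT sham libraries. In KO 3, 3 and 4 pairs changed without KO I/R 1, 2 and 3, and 7, 2 and 5 without KO sham 1, 2 and 3. Of all pairs 9.31%, 8.59% and 12.6% changed without these KO I/R libraries, and 11.2%, 8.35% and 14.3% without these KO sham libraries. Across the 55 pairs the changes of both genes correlated with r = 0.310 in WT and 0.391 in KO, and with 0.541 and 0.501 over the 37 pairs whose exons overlap, against 0.128 and 0.145 over the 18 without. Over the 358 other pairs of the table r was 0.234 in WT and 0.222 in KO. These are descriptions over pairs that share libraries, and reads of overlapping exons cannot be told apart.

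The Prdm16os ratio changed in both genotypes and under every library left out. Prdm16 had 154, 94 and 145 counts in WT I/R, 165, 71 and 180 in KO I/R, 224, 204 and 463 in WT sham and 484, 271 and 208 in KO sham. Its I/R libraries lay below its sham libraries. Prdm16 fell by 1.34 in WT (SE 0.37, edgeR adjusted p = 0.0235) and by 1.20 in KO (SE 0.37, adjusted p = 0.0339), calls that were lost without WT I/R 1 (0.0542), WT I/R 2 (0.101), WT I/R 3 (0.0629), WT sham 3 (0.116), KO I/R 1 (0.0643), KO I/R 2 (0.104) or KO sham 1 (0.102). Prdm16os fell further than Prdm16, by 1.90 log2 units in WT (SE 0.35, limma adjusted p = 0.0094) and by 2.37 in KO (SE 0.35, adjusted p = 0.0034). This pair has no exon overlap.

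Man2c1os lies opposite both Man2c1, the gene of a cytosolic alpha-mannosidase, and Sin3a, a corepressor gene with which it shares the longer overlap. Man2c1os had 78, 85 and 86 counts in WT I/R, 101, 113 and 72 in KO I/R, 28, 33 and 25 in WT sham and 30, 29 and 34 in KO sham. Every I/R library was above every sham library. It rose by 1.36 in WT (SE 0.36, edgeR adjusted p = 0.0195) and by 1.60 in KO (SE 0.36, adjusted p = 0.00835), the WT call being lost without any WT library but WT sham 2 (adjusted p up to 0.0744). Man2c1 differed by -0.14 in WT and 0.10 in KO (SE 0.27 in each). The ratio of Man2c1os to Man2c1 rose by 1.49 in WT (SE 0.27, limma adjusted p = 0.0094) and by 1.47 in KO (SE 0.27, adjusted p = 0.0068), under every library left out, and that to Sin3a by 1.80 (adjusted p = 0.0671) and 1.88 (adjusted p = 0.0545). The pair with Man2c1 is not among the 55.

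Gt(ROSA)26Sor, the locus used for inserting transgenes, was named after its values were seen. It starts 32 bases from Setd5, a chromatin regulator gene, and runs the other way. It had 255, 231 and 270 counts in WT I/R, 234, 214 and 211 in KO I/R, 93, 155 and 162 in WT sham and 106, 103 and 193 in KO sham, with the I/R counts above the sham counts, although the KO groups overlapped in CPM, and the difference did not pass the edgeR test (log2 0.72, adjusted p = 0.198 in WT; 0.60, 0.275 in KO). Setd5 had 146, 99 and 204 counts in WT I/R, 235, 84 and 301 in KO I/R, 556, 264 and 720 in WT sham and 971, 615 and 430 in KO sham. Setd5 fell by 1.96 in WT (SE 0.43, edgeR adjusted p = 0.0083) and by 1.71 in KO (SE 0.43, adjusted p = 0.0141). The ratio of Gt(ROSA)26Sor to Setd5 rose by 2.64 in WT (SE 0.65, limma adjusted p = 0.0303) and by 2.58 in KO (SE 0.65, adjusted p = 0.0277). The ratio was lost without any 1 WT library but WT sham 2 (adjusted p up to 0.114) and without KO I/R 1, KO I/R 2, KO sham 1 or KO sham 2 (up to 0.0876).

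0610009L18Rik, whose promoter region is shown above, starts 136 bases from Actg1, the gene of gamma-actin. 0610009L18Rik had 82, 110 and 79 counts in WT I/R, 93, 169 and 53 in KO I/R, 63, 74 and 45 in WT sham and 72, 70 and 106 in KO sham, and the WT groups did not overlap in raw counts but did in CPM. Actg1 had 29221, 24320 and 25218 counts in WT I/R, 25634, 26240 and 21824 in KO I/R, 4744, 13162 and 8962 in WT sham and 5045, 3843 and 4258 in KO sham. The noncoding RNA did not pass the edgeR test (0.40 in WT, adjusted p = 0.596; 0.34 in KO, 0.655), while Actg1 rose by 1.39 (SE 0.35, adjusted p = 0.0168) in WT and by 2.48 (SE 0.37, adjusted p = 0.00119) in KO. The WT call of Actg1 was lost without WT I/R 1 (0.0624), WT sham 1 (0.0568) or WT sham 3 (0.0602). Their ratio fell by 2.28 in KO (SE 0.54, limma adjusted p = 0.0201), lost without KO I/R 1 (0.0549), KO I/R 3 (0.0534) or KO sham 2 (0.0554), and the WT value was -1.08 (adjusted p = 0.206).

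In the remaining pairs with a changed ratio the coding gene changed less than the noncoding RNA, or changed alone. The ratio of Gm21691 to Mylk fell by 2.42 in WT (SE 0.56, limma adjusted p = 0.0244) and by 2.02 in KO (SE 0.56, adjusted p = 0.0395), that of Gm22146 to Fkbp5 fell by 5.36 in WT (adjusted p = 0.0094), and that of Dnm3os to Dnm3, a dynamin gene, rose by 4.70 in WT (SE 1.03, adjusted p = 0.0202). Mylk, Fkbp5 and Dnm3 did not pass the edgeR test themselves in WT (log2 -0.65, 0.27 and -0.23). The ratio of Gm27176 to Entpd4b rose by 3.48 in KO (SE 0.64, adjusted p = 0.0068), under every library left out. Other ratios that passed in WT, with the coding gene past the edgeR test and the noncoding RNA not, included those of 1700018L02Rik to Ak3, a mitochondrial adenylate kinase gene (1.61 in WT, adjusted p = 0.0437), and of Gm15545 to Prmt1, a protein arginine methyltransferase gene (-1.19 in WT, adjusted p = 0.0341), both named after their values were seen. Ak3 fell by 1.38 and Prmt1 rose by 1.43 in WT (edgeR adjusted p = 0.00135 and 0.00387), with 0.20 and 0.25 for the noncoding RNAs. Both of these WT ratios were lost when any 1 WT library was left out (adjusted p up to 0.149 and 0.14), those of Gm21691 without WT I/R 1, WT I/R 2, WT sham 2 or WT sham 3 in WT (up to 0.0912) and without any KO library but KO sham 1 in KO (up to 0.112), that of Dnm3os without WT I/R 1, WT I/R 2, WT sham 2 or WT sham 3 (up to 0.0776), and that of Gm22146 without WT sham 3 (0.0505).

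**Figure D4:**
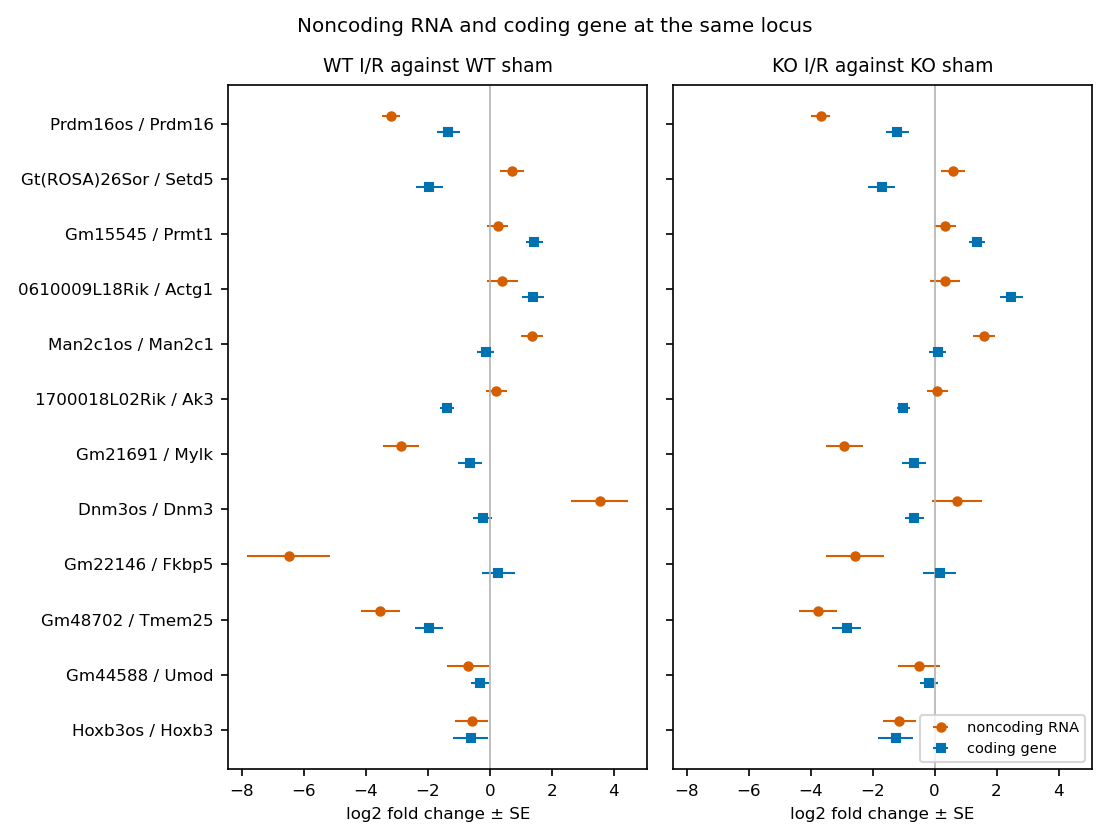
Log2 fold change after I/R with its SE (bars) for the noncoding RNA (circles) and the coding gene at its locus (squares), from edgeR, in WT (left) and KO (right), for 12 pairs. Prdm16os lies left of Prdm16 in both panels, and Gt(ROSA)26Sor lies right of Setd5, Man2c1os right of Man2c1.

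Of the RNAs that the gene lists named at developmental, imprinted and inflammatory loci, Hoxb3os, Kcnq1ot1 and Gm16685 belonged to the set. None of them passed the test. The other listed RNAs were not in the table or not in the set, and are not described here. Hoxb3os, opposite the homeobox gene Hoxb3, had 185, 250 and 211 counts in WT I/R, 281, 315 and 170 in KO I/R, 300, 230 and 329 in WT sham and 290, 308 and 910 in KO sham, with overlap and with KO sham 3 far above the rest. Its log2 differences were -0.58 in WT (SE 0.53, edgeR adjusted p = 0.459) and -1.14 in KO (SE 0.54, adjusted p = 0.146), and Hoxb3 differed by -0.62 and -1.25. Kcnq1ot1, an imprinted RNA of 93092 exonic bases, had 49, 45 and 56 counts in WT I/R, 38, 83 and 55 in KO I/R, 61, 53 and 61 in WT sham and 113, 42 and 119 in KO sham, with differences of -0.40 (adjusted p = 0.585) and -0.65 (0.339). Gm16685, opposite the start of the cytokine gene Il7, differed by 0.16 in WT (adjusted p = 0.883) and by 1.18 in KO (0.202). Of the highest divergent RNAs, 2610306M01Rik, 77 bases from the kinase gene Aak1, differed by 0.19 in WT (SE 0.48, edgeR adjusted p = 0.803). Its 95% interval was -0.84 to 1.23, so changes within that interval were not excluded.

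The changes that passed the test under every alternative tried that kept the gene, other tools and each library left out included, were, among the genes that met the count rule with libraries of both conditions, those of 6 genes in WT and 5 in KO. In both genotypes these were Gm21691, Gm48702 and Prdm16os. In WT they included 3110045C21Rik, Gm15638 and Gm19950 as well, and in KO 4930426D05Rik and Gm15895. The calls of 4930533I22Rik and D630011A20Rik in both genotypes and of Gm22146 in WT were kept too, but these genes entered the set by 1 condition alone and had to differ. Gm22146 was not tested in WT with the filter at 5 CPM or in the fit to the libraries of the contrast alone.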

How the data were processed

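Kidney RNA sequencing of 12 libraries in 4 groups of 3 was read from 1 table of 16383 genes. The authors deposited whole-number read counts and FPKM values per gene, per the file headers, with gene type and locus. HISAT2 and StringTie were used, per the submitters' processing notes; no source used here gives the genome build, counting rules or strand use. Across the genes listed, 98.7% of loci equal those of GENCODE M21 on GRCm38, which gave strands, exons and coding partners; 157 of the 161 loci described are equal, and 4 of these genes are protein coding in that release.

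Counts as deposited were tested with edgeR 4.0.16 in R 4.3.3 (quasi-likelihood test, TMM factors, filterByExpr with minimum count 10 and minimum total 15, 1 model of 4 groups, Benjamini-Hochberg adjustment over 5048 genes, threshold 0.05). Intervals and SE come from this fit, and CPM are counts scaled to library size with TMM factors. Ratios of counts plus 0.5 within a pair were fitted with limma 3.58.1. Both procedures were tested on simulated data. Libraries held 4678827 to 5456261 counts, and 3 libraries per group limit the precision. Reads of KO I/R 2 were recovered from its FPKM column (whole within 0.02 reads for 98.4% of the genes). Alternatives were other scalings, filters, DESeq2 1.42.0, limma on FPKM, a replicate block, recovered reads and each library left out.

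The members, gene lists and the rule for named genes were chosen with earlier results of these data known. By that rule, named genes are up to 12 changed members per direction and contrast, the 8 of highest FPKM, listed RNAs, those at the edge of the count rule, and their partners.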

Additional observations from a re-analysis of the deposited data

How the results depend on the processing

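Counts of changed noncoding RNAs in WT I/R against WT sham stayed within 1.5 times of 28 under the other scalings, filters and tools, and were 13 to 18 with 1 WT library left out. In KO I/R against KO sham they were 17 to 30 with 1 KO library left out, against 23, and 7 with only the 6 KO libraries fitted. Over all genes 16.0% to 26.4% were called with 1 KO library left out. The split was 16 higher and 17 lower in WT and 13 and 19 in KO with limma on log2(FPKM + 0.1). KO sham against WT sham gave 1 with DESeq2 and 1 with limma on log2(FPKM + 0.1) or log2(FPKM + 0.01), against 0. Of the changed pairs, 7 in WT and 5 in KO, 3 and 2 remained in number with overlapping loci only, 12 and 14 changed as a ratio of FPKM + 0.1, and 11 and 13 with recovered reads for KO I/R 2. Only pairs on opposite strands gave 8 in KO. Leaving out 1 library gave 1 to 5 pairs in WT and 2 to 7 in KO. The cause of these shifts was not tested. Leaving out libraries or pairs also left fewer of them to fit, and the part of this was not tested either.

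The replicate block gave 25 changed genes in WT and 21 in KO, against 20.4% and 22.5% of all genes. It gave 8 and 6 pairs, against 10.7% and 15.3% of all pairs. The deviations of same-numbered libraries correlated between -0.37 and 0.30. Correlations between libraries of unlike number were not computed, so a pairing by number was neither shown nor excluded. No change that passed the test was reversed under any alternative for the results named. With a median level of 0.800 FPKM, counts limit what could be detected for most of these RNAs.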
